A study of Mus musculus with 238 samples.

Results

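A set of 6 LIM homeobox genes, Lhx1, Lhx2, Lhx5, Lhx6, Lhx8 and Lhx9, were followed through every library of a bulk RNA sequencing survey of the aged mouse brain. They were chosen by name, and all 6 have a row among the 21076 gene rows of the count table. The survey holds 229 libraries from 15 brain regions and 9 from liver of C57BL/6JN mice aged 19 months. In the diet cohort, females were either dietary restricted (aDR, 5 mice, with the liver libraries of the same mice labelled DR) or fed ad libitum (AL, 4 mice). In the plasma cohort, males received retro-orbital injections of Young Mouse Plasma (YMP, 3 mice) or of the saline PBS (4 mice). Sex and cohort go together, so the cohorts were not compared with each other. Each group of a region holds 2 to 5 libraries, and each mouse gave at most 1 library per region. No genotype other than the strain is given.

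LIM homeodomain proteins are transcription factors that join a DNA-binding homeodomain to a pair of LIM domains, zinc-binding folds through which they bind the cofactor Ldb1 or compete with LIM-only proteins for it. In the developing brain each is switched on in particular territories, and many neurons keep the gene on in adult life. Lhx1 and Lhx5 act in Purkinje cell development, Lhx2 in the patterning of the cortex, Lhx6 in interneurons that arise from the medial ganglionic eminence, Lhx8 in forebrain cholinergic neurons and Lhx9 in the thalamus.

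In the GRCm38 build of the deposited counts, Lhx1 (minus strand) lies at chr11:84518284-84525535, Lhx2 (plus) at chr2:38339281-38369733 and Lhx5 (plus) at chr5:120431699-120441223. Lhx6 (minus) lies at chr2:36081953-36105408, Lhx8 (minus) at chr3:154306294-154330659 and Lhx9 (minus) at chr1:138825186-138848577. Lhx1 has a long noncoding neighbour, Lhx1os (plus strand, chr11:84525660-84535831), which is transcribed away from it and shares no exon base with it. The 125 bases between the RefSeq start sites of that pair (GRCm38.p6, chr11:84525535-84525659) are shown because both genes moved together across the brain. They are written 5′ to 3′ on the minus strand, towards Lhx1, with capitals for the only matches among 5 motifs searched on both strands.
Lhx1 to Lhx1os interval: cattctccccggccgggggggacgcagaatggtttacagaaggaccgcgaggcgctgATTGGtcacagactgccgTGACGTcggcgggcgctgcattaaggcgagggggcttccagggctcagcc
The first capitals, ATTGG, are the CCAAT box read on the other strand, which occurs in 21.9% of 32851 RefSeq promoter windows of the same length. The other capitals, TGACGT, a core of the cyclic AMP response element, occur in 4.64% of the windows. A GC box (GGGCGG, in 26.9% of the windows) was not among the letters of this interval. A TATA box (TATAAA, 6.55%) was not among them either. The whole palindrome of the cyclic AMP element (TGACGTCA, 1.28%) was also not there. The interval has a GC content of 66.4% and 12 CG pairs.

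Reads of paralogs can be confused where their transcripts are identical, so the longest run shared by each pair of members was found. The following runs are shown because they set how far reads of the most alike genes could be mixed.
Lhx1 and Lhx5: cacctcaactgcttcacctg
Lhx2 and Lhx9: atgaaggacagcctggt
Lhx6 and Lhx8: caggacaacaaccc
These runs are 20, 17 and 14 bases long. Runs longer than 20 bases were found only for Lhx5 with Lhx9 (65 bases, 64 of them a dinucleotide repeat) and Lhx6 with Lhx9 (41 bases, 38 of them a repeat). Lhx1 with Lhx2 and Lhx5 with Lhx8 shared 18 bases. The libraries were not stranded. Lhx5 shares 69 exon bases (2.57% of its exons) with Gm27199 on the other strand, and Lhx6 shares 104 (2.16%) with Gm27953. The other 4 members share no exon base with another gene.

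Library totals ran from 0.606 M to 32.4 M counts (M for mega; median 8.44 M), and 6 libraries held under 2 M. Gene lists for 6 of the 15 regions were set against the labels by the brain region with the highest median: all 7 Purkinje cell genes and all 3 granule cell genes in cerebellum, all 5 striatal genes in caudate putamen, all 4 olfactory bulb genes in olfactory bulb, 6 of 7 thalamic genes in thalamus, 8 of 10 hypothalamic genes in hypothalamus and 4 of 5 choroid plexus genes in choroid plexus. The exceptions were Calb2 and Aqp1 (highest in olfactory bulb), Foxb1 (thalamus) and Vip (visual cortex). Of 4 cortical genes Neurod6 was highest in anterior hippocampus and Rorb in thalamus, and of 3 hippocampal genes Fibcd1 was highest in choroid plexus. The choroid plexus libraries held Fibcd1, a gene of hippocampal pyramidal cells, at a median of 125 CPM (counts scaled to a fixed library total by the trimmed mean of M-values over the brain libraries), and their Ttr ran from 133 to 15718 CPM. The hypothalamus library of PBS mouse 72 went against its label, as given below, and results that rest on it are given with and without it. In bulk tissue, fewer cells of a type and less RNA per cell cannot be told apart.

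The maps of the members together covered most of the brain. Those of Lhx1 and Lhx5 were much alike, and Lhx6 and Lhx8 shared their highest region. Scaled by exon length, the highest regional means were 19.2 CPM per kilobase for Lhx2 in entorhinal cortex, 16.3 for Lhx1 in cerebellum, 8.45 for Lhx9 in thalamus, 6.72 for Lhx6 and 6.52 for Lhx8 in caudate putamen, and 5.94 for Lhx5 in cerebellum. All levels below are CPM without length scaling, and they compare regions for 1 gene at a time.

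**Figure D1:**
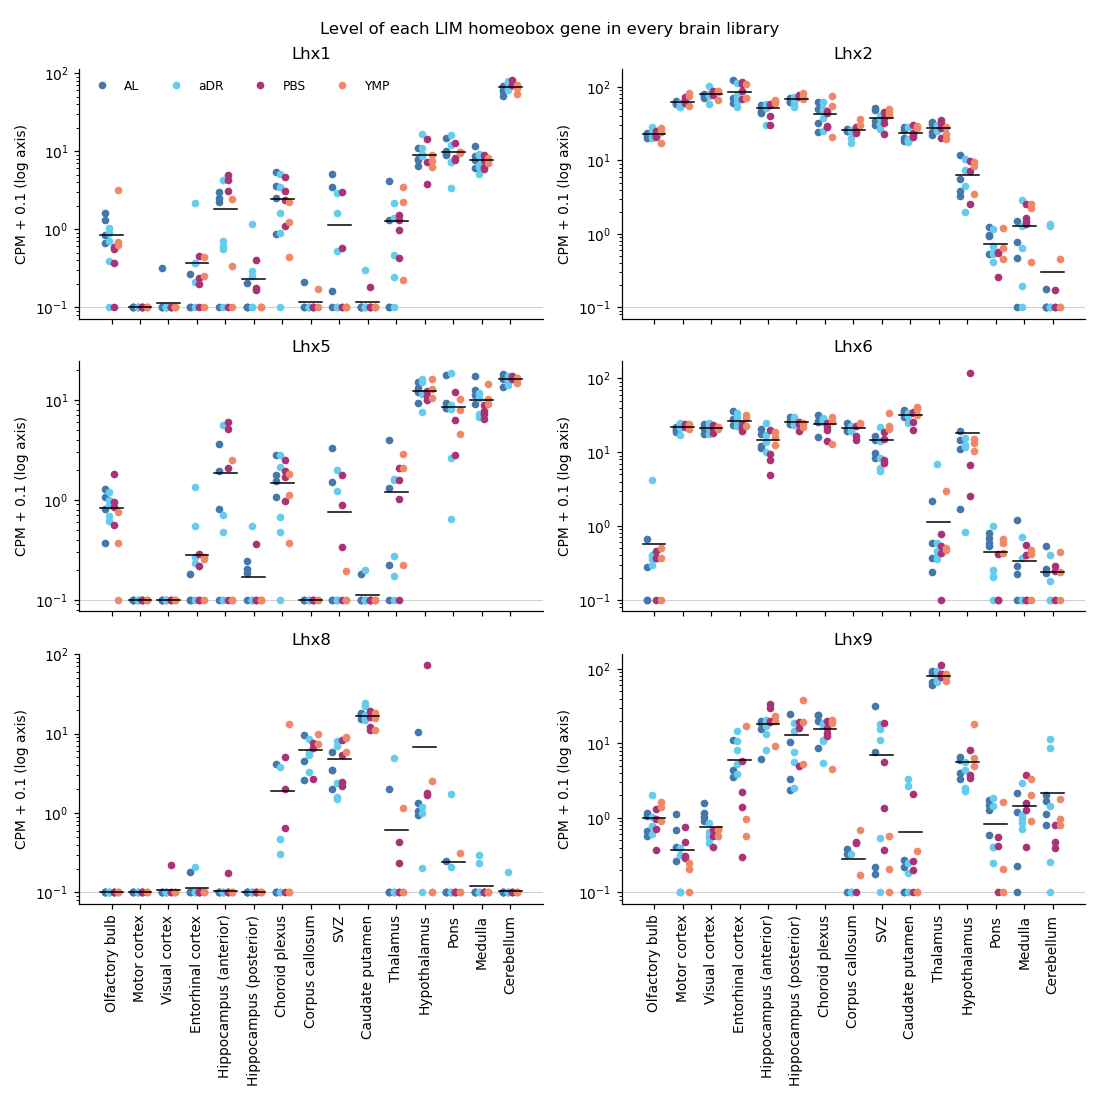
Level of each of the 6 genes in every brain library, as CPM plus 0.1 on a log axis, by region along the x axis. Points are libraries coloured by treatment and bars are means over all libraries of a region. Lhx1 stands apart in cerebellum and Lhx9 in thalamus, and the single PBS point far above the rest for Lhx6 and Lhx8 in hypothalamus is mouse 72.

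Lhx1 was a cerebellar gene. Its 15 cerebellum libraries lay between 51.4 and 81.4 CPM (median 68.6), a mean of 66.4 ± 8.64 CPM (SD, n = 15). Pons (9.62 ± 3.14, n = 15), hypothalamus (8.90 ± 3.26, n = 14) and medulla (7.51 ± 1.66, n = 16) followed at a level 6.90-fold or more below it. No library of another region reached the lowest cerebellar value. Those 3 regions did not differ from each other beyond their spread. Lhx1 had no count in any of 16 motor cortex libraries and at most 3 counts in every library of caudate putamen, corpus callosum and visual cortex.

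Lhx5, the closest relative of Lhx1, had the same highest region with a flatter slope. Its cerebellar values ran from 13.4 to 18.0 CPM, with a mean of 16.0 ± 1.28 (n = 15). Hypothalamus held 12.2 ± 2.63 (n = 14), medulla 9.96 ± 2.99 (n = 16) and pons 8.34 ± 5.06 CPM (n = 15). The cerebellum mean exceeded that of hypothalamus by more than the larger SD, but their libraries overlapped. Hypothalamus and medulla did not differ beyond the spread, nor did medulla and pons, and pons exceeded the next region, anterior hippocampus (1.74 CPM), by more than the larger SD. No Lhx5 count was found in corpus callosum, motor cortex or visual cortex.

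Pons varied widely. Its Lhx5 values ran from 0.541 CPM in aDR mouse 67 to 18.7 in aDR mouse 64 and 17.7 in AL mouse 68. Mouse 67 was also lowest in pons for Lhx1 (3.25 CPM), and mice 64 and 68 were highest for it (16.0 and 14.5 CPM). Foxb1, a forkhead gene of the mammillary region and parts of the thalamus, was at 33.6 CPM in the pons of mouse 64 and 14.3 in that of mouse 68, against a median of 1.97. What these libraries share beyond these genes was not tested.

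Lhx1os tracked Lhx1. It reached 64.4 ± 10.9 CPM in cerebellum (n = 15), 13.4 ± 6.85 in medulla and 6.38 ± 2.22 in hypothalamus, with pons between them, and like Lhx1 it had no count in motor cortex. The count of Lhx1os per count of Lhx1 was 0.969 in cerebellum, 0.720 in hypothalamus and 1.57 in medulla, so the balance of the pair was not the same everywhere. The interval printed above separates their start sites.

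**Figure D2:**
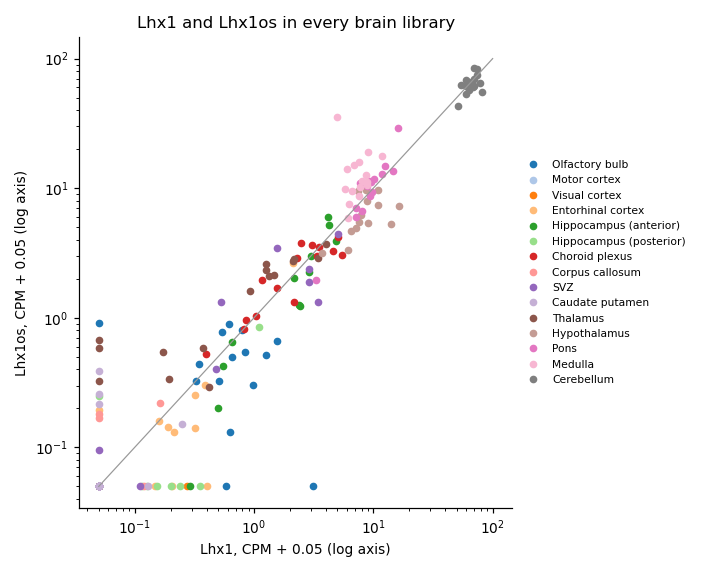
Lhx1 (x axis) and Lhx1os (y axis) in every brain library, as CPM plus 0.05 on log axes, coloured by region, with a grey line where both are equal. Cerebellum sits apart at the top, medulla lies mostly above the line and hypothalamus mostly below it.

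Within the hypothalamus, Lhx1 is known as a gene of the suprachiasmatic nucleus, the circadian pacemaker. Its 2 highest values there were 16.2 CPM in aDR mouse 64 and 14.1 in PBS mouse 84. Vip, a peptide of that nucleus, was at 99.9 and 16.4 CPM in those libraries, the highest values of 14 (median 3.23). Six6, an eye-field gene of the same territory, was at 41.2 and 20.1 CPM (median 6.96), and PBS mouse 80 held Six6 at 24.2 CPM with Lhx1 at 7.05. The whole list of 10 hypothalamic genes, Vip and Six6 among them, had its highest aDR sum in mouse 65 (1992 CPM). Its highest PBS sum was in mouse 84 (2301 CPM). The highest sum of any group was 3435 CPM in AL mouse 69, with Lhx1 at 7.91 CPM. The part of the suprachiasmatic nucleus in the Lhx1 values was not tested.

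In the anterior hippocampus, Lhx1 and Lhx5 were present in some libraries and missing in others. Lhx5 was highest in PBS mice 84 (5.87 CPM) and 72 (5.07), aDR mouse 67 (5.57), AL mouse 69 (3.50) and YMP mouse 81 (2.40), and it had no count in 6 of 16 libraries. The same 5 libraries held the 5 highest Foxb1 values, 4.94 to 10.8 CPM against at most 4.11 in the rest. For Lhx1, 4 of the 5 highest libraries were among the 5 highest for Foxb1. Trp73, a gene of Cajal-Retzius cells, which also use Lhx1 and Lhx5, was at most 0.934 CPM in 4 of those 5 libraries and at 1.10 in mouse 69, against 3.73, 3.69 and 3.40 in mice 64, 77 and 76. The whole list of 3 Cajal-Retzius genes summed to 31.5 to 42.5 CPM in PBS, 33.9 to 42.6 in AL, 31.1 to 44.4 in aDR and 34.9 to 39.4 in YMP libraries. None of the 3 had its highest median in hippocampus: Trp73 had it in SVZ (the subventricular zone, 5.40 CPM), Reln in cerebellum and Ndnf in olfactory bulb. The 10 hypothalamic genes, Foxb1 among them, summed to between 12.5 and 34.9 CPM over all 4 groups, with Otp and Nkx2-4 at 0 in each group. Foxb1 itself had its highest median in thalamus (6.13 CPM), so it is not a marker of hypothalamus alone. The part of any of these in the Lhx1 and Lhx5 values was not tested.

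**Figure D3:**
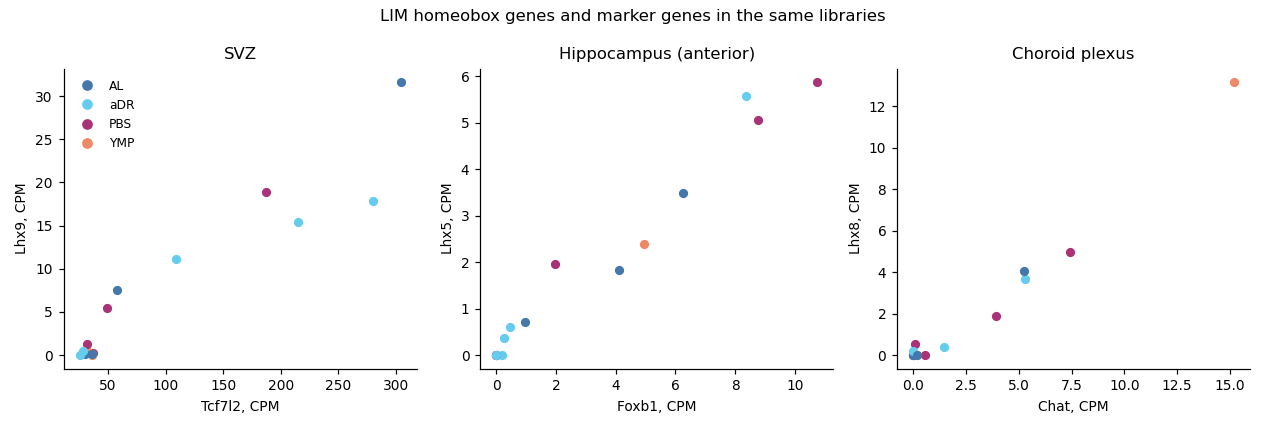
A member (y axis) against a marker gene (x axis), both in CPM, in the libraries of 1 region: Lhx9 and Tcf7l2 in SVZ, Lhx5 and Foxb1 in anterior hippocampus, Lhx8 and Chat in choroid plexus. Points are libraries coloured by treatment, and in each panel the 5 libraries highest for the member are the 5 highest for the marker.

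Lhx2 followed the cortex and hippocampus. Entorhinal cortex was highest at 84.3 ± 23.7 CPM (n = 15, 52.6 to 125), followed by visual cortex at 79.3 ± 10.3 (n = 15), posterior hippocampus at 68.3 ± 7.97 (n = 15), motor cortex at 62.6 ± 8.66 (n = 16) and anterior hippocampus at 51.1 ± 10.9 (n = 16). Entorhinal and visual cortex did not differ beyond their spread. Choroid plexus held 43.2 ± 16.0, SVZ (the subventricular zone) 38.1 ± 8.79, thalamus 27.1 ± 4.61, corpus callosum 25.8 ± 5.01, caudate putamen 23.6 ± 4.80 and olfactory bulb 22.7 ± 2.80 CPM. The ranges then parted: hypothalamus lay at 6.30 ± 3.23 CPM (n = 14), below every olfactory bulb library. Medulla (1.17 ± 0.938), pons (0.619 ± 0.312) and cerebellum (0.198 ± 0.429) closed the order, with no count in 10 of 15 cerebellum libraries.

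Lhx2 in the choroid plexus libraries ran from 20.8 to 76.0 CPM. Of the 5 libraries highest for Lhx2 there, 4 were among the 5 highest for Fibcd1, and the 2 libraries lowest for Fibcd1 (6.30 CPM in YMP mouse 77 and 12.3 in aDR mouse 64) held Lhx2 at 20.8 and 37.9 CPM. Wfs1, another gene of hippocampal pyramidal cells, went the other way, with its 2 highest values (312 and 303 CPM) in those same 2 libraries and a range of 62.9 to 312. The 3 hippocampal genes of the marker list summed to between 228 and 396 CPM over the 4 groups of choroid plexus libraries. How much of the Lhx2 in these libraries came with hippocampal tissue was not tested.

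Lhx6 was found across the forebrain outside thalamus and olfactory bulb. Caudate putamen led with 32.3 ± 5.22 CPM (n = 16, 20.2 to 40.7), beyond the spread of the next region. Entorhinal cortex (26.4 ± 4.98), posterior hippocampus (25.2 ± 2.85), choroid plexus (24.1 ± 5.72), motor cortex (21.9 ± 2.24), visual cortex (21.2 ± 2.20), corpus callosum (20.9 ± 3.25), hypothalamus (18.2 ± 29.9, with mouse 72 described below), anterior hippocampus (14.4 ± 5.29) and SVZ (14.4 ± 7.71) followed. From entorhinal cortex to SVZ no region differed from the next in this order beyond the larger SD, which for hypothalamus is set by mouse 72. Lhx6 then dropped to 1.02 ± 1.73 in thalamus and to under 0.5 CPM on average in olfactory bulb, pons, medulla and cerebellum. Thalamus and olfactory bulb each had a library out of line, 6.85 CPM in aDR mouse 64 and 4.09 CPM in aDR mouse 65.

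Lhx8 was found mainly in and around the striatum. All 16 caudate putamen libraries held it, at 10.9 to 23.9 CPM (16.5 ± 3.50). Corpus callosum (6.09 ± 2.58, n = 12) and SVZ (4.74 ± 2.78, n = 16), which border the striatum, held it in every library. It had no count in any library of motor cortex, olfactory bulb or posterior hippocampus, and at most 3 counts per library in visual cortex, entorhinal cortex, anterior hippocampus, medulla and cerebellum. In choroid plexus it was at 0 in 8 of 16 libraries and reached 13.2 CPM in YMP mouse 77, 5.00 in PBS mouse 76, 4.05 in AL mouse 68 and 3.67 in aDR mouse 64. PBS mouse 72 held 1.89. Chat, the enzyme that makes acetylcholine, was at 15.2, 7.45, 5.26, 5.31 and 3.92 CPM in those 5 libraries and at most 1.47 in the 11 libraries lowest for Lhx8. The 6 cholinergic genes summed to 4.11 to 47.6 CPM in the YMP, 5.39 to 28.2 in the PBS, 2.99 to 19.99 in the AL and 1.81 to 20.2 in the aDR choroid plexus libraries.

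The hypothalamus library of PBS mouse 72 held Lhx8 at 72.5 CPM and Lhx6 at 120 CPM. In the other 13 hypothalamus libraries Lhx8 ran from 0 to 10.3 CPM (median 0.952, highest in AL mouse 68) and Lhx6 from 0.721 to 19.2. The same library held Chat at 33.9 CPM (at most 2.65 elsewhere), the choline transporter Slc5a7 at 36.7 (at most 3.38) and Gbx1, a homeobox gene of cholinergic neurons, at 9.19 (at most 1.15). The 6 cholinergic genes summed to 131 CPM there, against 9.77 to 23.3 in the other 13. Hcrt, the orexin peptide of the lateral hypothalamus, was at 0.166 CPM against 56.0 to 966, and Pmch, another lateral hypothalamic peptide, at 1.49 against 84.5 to 2265. The library was thus lowest of the 14 for both lateral hypothalamic peptides and highest for Lhx6, Lhx8 and the cholinergic genes named. The 10 hypothalamic genes summed to 299 CPM in it and to at least 1082 in every other library. Over all 14 libraries the hypothalamus mean was 6.69 ± 19.1 CPM for Lhx8 and 18.2 ± 29.9 for Lhx6. Without mouse 72 it was 1.63 ± 2.72 and 10.3 ± 5.80 (n = 13). Caudate putamen was the highest region for both genes in the AL, aDR and YMP groups, and hypothalamus in the PBS group, at a mean of 43.1 CPM for Lhx6 and 25.3 for Lhx8 with mouse 72 among its 3 libraries.

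**Figure D4:**
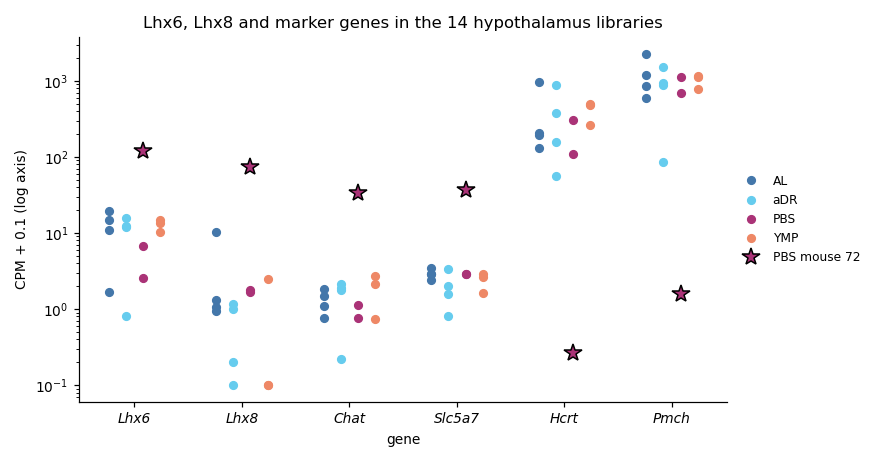
Lhx6, Lhx8 and 4 marker genes (x axis) in the 14 hypothalamus libraries, as CPM plus 0.1 on a log axis. Points are libraries coloured by treatment, and the star is PBS mouse 72, which lies above all others for Lhx6, Lhx8, Chat and Slc5a7 and below all others for Hcrt and Pmch.

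Lhx9 was a thalamic gene. All 16 thalamus libraries lay between 60.2 and 112 CPM (80.2 ± 13.2), 4.38-fold above the next region and above every library of any other. Anterior hippocampus held 18.3 ± 7.18, choroid plexus 15.3 ± 6.07 and posterior hippocampus 12.8 ± 10.2 CPM. These 3 did not differ beyond their spread. Entorhinal cortex held 5.91 ± 5.28 and hypothalamus 5.60 ± 4.00. Medulla, olfactory bulb, pons, visual cortex, caudate putamen, motor cortex and corpus callosum stayed under 1.5 CPM on average. Cerebellum averaged 2.09 ± 3.29 CPM, with 8.69 and 11.3 in aDR mice 64 and 65 and at most 1.92 in the other 13 libraries. The 7 thalamic genes summed to 480.0 to 548 CPM in the aDR cerebella, highest in mouse 62. They summed to 400 to 594 CPM in the AL, 532 to 630 in the PBS and 432 to 646 in the YMP cerebella. Lhx2 was also highest in the cerebella of mice 64 and 65, at 1.20 and 1.26 CPM, against at most 0.353 in the other 13. The part of other tissue in these values was not tested.

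In SVZ, Lhx9 varied widely between libraries. It was at 31.6 CPM in AL mouse 66, 18.9 in PBS mouse 76, 17.8 in aDR mouse 61, 15.5 in aDR mouse 62 and 11.1 in aDR mouse 65, and between 0 and 7.50 in the other 11, highest in AL mouse 69 (7.50) and PBS mouse 80 (5.46). Those 5 libraries held Tcf7l2, a transcription factor of thalamic neurons, at 109 to 304 CPM, and the other 11 held it at 25.3 to 57.8 CPM. All 7 thalamic genes had counts in each group, and their sum ran from 280 to 1120.4 CPM in AL, 88.3 to 972 in aDR, 74.0 to 788 in PBS and 77.4 to 275 in YMP libraries. The part of thalamic tissue in the SVZ values of Lhx9 was not tested.

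In liver, Lhx2 was at 3.13 ± 0.873 CPM (n = 9, 2.25 to 4.50) and Lhx6 at 2.49 ± 1.91 (0.135 to 6.51). Lhx1, Lhx5 and Lhx8 had no count there and Lhx9 at most 3 per library. Lhx2 is known in hepatic stellate cells. Of 4 genes of these cells, Lrat (28.5 to 45.4 CPM) and Dcn (209 to 309) were present in all 9 libraries and had their highest median in liver. Reln and Hhip, also on that list, had theirs in cerebellum and caudate putamen. All 4 summed to 283 to 373 CPM in AL and 282 to 396 in DR livers, and their part in the Lhx2 values was not tested.

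The contrasts between regions were tested in control mice over 12 pairs of regions, separately in AL and in PBS mice, with edgeR's quasi-likelihood test and Benjamini-Hochberg adjustment over all genes (called at an adjusted p under 0.05). Several pairs share a region, and the members are known for regional patterns, so the counts are a description of size. In AL mice 32 of 72 member-by-pair tests were called (44.4%), where 37.6% of all gene-by-pair tests were, and in PBS mice 26 of 72 (36.1%), where 30.3% were. The members' share was therefore not far above that of all genes. A total of 22 tests were called in both cohorts, each in the same direction. No member was called between motor and visual cortex or between medulla and pons in either cohort, where 2.14% and 7.72% of all genes were called in AL mice and 0.0259% and 3.87% in PBS mice.

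Between thalamus and hypothalamus (43.0% of genes called in AL, 31.6% in PBS mice), Lhx9 was higher in thalamus by a log2 difference of 3.92 (SE 0.672, edgeR adjusted p = 4.47e-06) in AL and 4.22 (SE 0.685, adjusted p = 4.56e-06) in PBS mice. The AL thalamus libraries held 66.3, 60.2, 92.5 and 88.1 CPM of Lhx9 and the AL hypothalamus libraries 5.92, 6.53, 3.28 and 3.86, with no overlap. Lhx2 was higher in thalamus too, by 2.35 in AL and 2.28 in PBS mice. Lhx1, Lhx5 and Lhx6 were lower in thalamus in both cohorts, by log2 differences of -2.48, -3.07 and -3.73 in AL mice. In PBS mice Lhx8 was lower in thalamus by -7.33 and Lhx6 by -6.78, and without mouse 72 by -4.73 (adjusted p = 0.0380) and -3.35 (adjusted p = 8.13e-05). Without AL mouse 68 the AL differences of Lhx1, Lhx5 and Lhx6 were larger, at -4.45, -4.78 and -4.92, and without AL mouse 63 that of Lhx2 was 2.95. Without AL mouse 66, Lhx1 came out short of the threshold in AL mice (-1.91, adjusted p = 0.0763).

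Between cerebellum and medulla (62.9% and 59.5% of genes called), Lhx1 was higher in cerebellum by 2.82 (SE 0.54, adjusted p = 2.02e-05) in AL and 3.33 (SE 0.50, adjusted p = 5.45e-07) in PBS mice. The AL cerebellum held 59.2, 59.7, 51.4 and 68.6 CPM and the AL medulla 8.61, 11.7, 7.50 and 5.91. Lhx5 was not called in either cohort. Lhx9 was lower in cerebellum in PBS mice only (-2.31, adjusted p = 0.049), a call lost without mouse 72 (adjusted p = 0.417), 80 (0.0979) or 84 (0.129). Lhx2 was lower in cerebellum in both cohorts, where the cerebellum libraries of each control group held 1 count in all. The ratio of pooled counts, medulla to cerebellum, was 19.7 in AL mice (95% exact counting interval 3.15 to 815, adjusted p = 0.0106). Without mouse 66 it was 12.7 (adjusted p = 0.0597). In PBS mice it was 43.1 (7.51 to 1722), and 24.5 without mouse 84. The single cerebellar counts came from AL mouse 63 and PBS mouse 72, so no ratio exists without them. With a floor of 3 counts per library, medulla was then at least 0.867-fold of cerebellum in AL mice, which does not set it higher. In PBS mice it was at least 4.70-fold.

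Between caudate putamen and motor cortex (53.1% and 44.7% of genes called), Lhx8 had no count in any motor cortex library. It was at least 43.7-fold higher in caudate putamen in AL mice (adjusted p = 7.14e-06) and at least 32.3-fold in PBS mice (adjusted p = 0.000102), with the floor set at 3 counts per library. Between corpus callosum and motor cortex (48.1% and 43.3% of genes called), corpus callosum was at least 14.5-fold higher for Lhx8 in AL (8.09-fold without mouse 69) and at least 12.6-fold in PBS mice (19.2-fold without mouse 76). Lhx2 was called too, lower in corpus callosum in both cohorts. With 1 mouse left out its log2 difference ran from -1.32 to -1.20 in AL and from -1.50 to -1.37 in PBS mice. It was also lower in caudate putamen than in motor cortex, by -1.41 in AL and -1.51 in PBS mice. Lhx6 was higher there by 0.76 (adjusted p = 0.0301) in AL mice and was not called in PBS mice, and the AL call was lost without mouse 63 (adjusted p = 0.0929), 66 (0.141) or 68 (0.0538).

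Between hypothalamus and caudate putamen (59.7% and 48.7% of genes called), Lhx5 had 1 count in caudate putamen in AL mice, a ratio of pooled counts of 699 (95% exact counting interval 125 to 27666), which was 451 without mouse 68 and at least 53.4 without mouse 69, where no count was left. In PBS mice it was at least 35.7-fold higher in hypothalamus. Lhx1 was at least 33.5-fold higher in hypothalamus in AL mice, and its ratio in PBS mice was 257 (45.7 to 10187), 139 without mouse 84 and at least 31.7 without mouse 72. Lhx2 was lower there, by -2.12 and -2.02. Lhx9 was higher, with a ratio of 72.2 in AL mice (27.8 to 267, then 45.9 without mouse 66 and 196 without mouse 68) and by a log2 difference of 3.48 in PBS mice (adjusted p = 0.00174, and 0.0636 without mouse 84, while the difference was 5.49 without mouse 76). Lhx6 and Lhx8 were lower in hypothalamus in AL mice, by -1.58 (adjusted p = 2.65e-05) and -2.48 (adjusted p = 0.0114). The Lhx8 call was lost without AL mouse 63 (adjusted p = 0.0641), 66 (0.0775) or 69 (0.0829), and the difference was -4.19 without mouse 68. Neither gene was called in PBS mice, whose hypothalamus group includes mouse 72.

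Between SVZ and caudate putamen (38.9% and 28.9% of genes called), all 6 members were called in AL mice and Lhx9 alone in PBS mice. In AL mice Lhx9 had 242 counts in SVZ and 4 in caudate putamen, a ratio of 67.7 (95% exact counting interval 26.1 to 250.5). This ratio moved with every mouse left out: it was 22.8 without mouse 66, 42.9 without 69, 104 without 63 and 265 without 68. The log2 difference of 6.38 (edgeR adjusted p = 4.45e-05) was 4.31 (adjusted p = 0.0110) without mouse 66. In PBS mice Lhx9 was higher in SVZ by 4.03 (adjusted p = 0.000452), and the thalamic genes of these libraries are described above. The AL call of Lhx1 was lost without mouse 69 (adjusted p = 0.114), and that of Lhx5 without mouse 66 (0.146) or 69 (0.0850). Lhx6 was lower in SVZ by -1.46 and Lhx8 by -2.25 in AL mice, and the Lhx8 call was lost without mouse 66 (adjusted p = 0.0734) or 69 (0.115). Between entorhinal and motor cortex (29.6% and 18.7% of genes called), the call was that of Lhx9, higher in entorhinal cortex by 3.37 in AL (adjusted p = 0.0159) and 2.94 in PBS mice (adjusted p = 0.0365). It was lost without AL mouse 63 (0.0927) or 69 (0.148), and without PBS mouse 80 (0.181) or 84 (0.657). Between choroid plexus and SVZ (30.8% and 22.7%), Lhx6 was higher in plexus by 0.99 in AL mice, and Lhx1 and Lhx5 by 2.36 and 2.42 in PBS mice. The Lhx6 call was lost without AL mouse 63 (adjusted p = 0.0702) or 66 (0.0930). In PBS mice the Lhx1 call was lost without mouse 72 (0.362) or 76 (0.0561), and the Lhx5 call without mouse 72 (0.435), 76 (0.113) or 80 (0.0811). Without mouse 80 the Lhx1 difference was 3.86, and without mouse 84 that of Lhx5 was 3.37.

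Between olfactory bulb and motor cortex (60.9% and 55.0% of genes called), Lhx6 was lower in the bulb by -7.09 (SE 0.57, adjusted p = 6.98e-15) in AL and -6.42 (SE 0.84, adjusted p = 2e-08) in PBS mice. Without AL mouse 69 the AL difference was -8.26. The AL bulbs held 0, 0, 0.176 and 0.566 CPM and the AL motor cortices 21.6, 18.6, 19.8 and 20.5. Lhx2 was lower in the bulb by -1.53 and -1.63. Lhx5 was at least 2.18-fold higher in the bulb in AL (3.36-fold without mouse 66) and at least 2.29-fold in PBS mice (1.52-fold without mouse 72), against 0 counts in motor cortex. Lhx1 was at least 2.78-fold higher in the bulb in AL mice (adjusted p = 0.00646) and was not called in PBS mice (adjusted p = 0.0525).

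Between posterior and anterior hippocampus (14.6% and 6.08% of genes called), Lhx1 and Lhx5 were called in both cohorts, and Lhx2, Lhx6, Lhx8 and Lhx9 in neither. For Lhx1 the ratio of pooled counts, anterior to posterior, was 80.9 in AL mice (95% exact counting interval 13.9 to 3254, adjusted p = 0.00978), 53.2 without mouse 66 and at least 5.03 without mouse 69, which held the single posterior count. In PBS mice it was 29.5 (12.3 to 92.5, adjusted p = 0.00164), 17.8 without mouse 84 and 55.7 without mouse 80. For Lhx5 it was 26.0 in AL mice (8.42 to 130.05, adjusted p = 0.0119) and 13.7 without mouse 69. In PBS mice the posterior minus anterior log2 difference of Lhx5 was -5.00 (adjusted p = 0.00134), and -7.78 (adjusted p = 0.0495) without mouse 84. Both AL calls were lost without mouse 66 (adjusted p = 0.0855 and 0.0511) or 69 (0.0723 and 0.202), and the PBS call of Lhx1 was lost without mouse 84 (adjusted p = 0.113). The anterior values are those set beside Foxb1 above.

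Other genes that work with LIM homeodomain proteins were taken from a list of 16: the related genes Lhx3, Lhx4, Isl1, Isl2, Lmx1a and Lmx1b, 4 LIM-only genes, and the cofactors Ldb1, Ldb2, Ssbp2, Ssbp3, Ssbp4 and Rlim. In the region pairs 15 of them passed the count filter, and 76 of 180 tests were called in AL and 55 of 180 in PBS mice (42.2% and 30.6%), where 37.6% and 30.3% of all tests were. Isl1, a LIM homeodomain gene of striatal and motor neurons, was higher in caudate putamen than in motor cortex in both cohorts, at least 52.0-fold in PBS mice. Lmo2, a LIM-only gene, was higher there by a log2 difference of 2.58. Isl1 was lower in thalamus than in hypothalamus by -3.92. In AL mice Lmx1a and Lmx1b had the largest changes of the network genes called in that pair, both lower in thalamus. Ldb2, which binds LIM domains as Ldb1 does, was lower in olfactory bulb than in motor cortex by -4.22, and Lmo4, a LIM-only gene of cortical neurons, by -2.07. Medulla held more Isl1 (87 counts against 1 in pons, a ratio of 83.2 with a 95% exact counting interval of 14.6 to 3325, and 54.6 and 48.1 without mouse 63 or 66), Lhx4 (3.14) and Lhx3 (1.95, both log2) than pons in AL mice, a pair in which none of the 6 members was called.

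The genes most like each member in regional pattern were searched among 15396 genes, by Pearson's r of mean log2 CPM over 15 regions in AL mice. Regions of 1 mouse share an animal, so the values are descriptions. For Lhx1 these were Lhx1os (r = 0.989), Lhx5 (0.974) and Uncx (0.963), and for Lhx5 Lhx1 (0.974), Lhx1os (0.973) and Eef1d (0.957). For Lhx2 they were Neurl1b (0.976), Grin2b (0.968) and Camk2a (0.968), for Lhx6 Slc7a4 (0.982), Cdkl4 (0.941) and Gramd2 (0.940), and for Lhx8 AI606473 (0.986), Rgs9 (0.960) and Dmkn (0.952). For Lhx9 they were Nt5dc3 (0.896), Slc24a3 (0.884) and Ska3 (0.880), of which Ska3 had an r of -0.26 in PBS mice. The other 17 had an r in PBS mice of at least 0.817. Lhx1 and Lhx2 ran opposite to each other (r = -0.88 in AL and -0.88 in PBS mice), and the r of Lhx9 in AL mice was 0.0698 with Lhx1, 0.0079 with Lhx6, 0.0817 with Lhx5, 0.26 with Lhx2 and -0.34 with Lhx8.

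No member was called with dietary restriction. Of 90 gene-by-region tests 47 passed the count filter, and the other 43 were too low to test. With edgeR, 0 of the 47 were called, against 0.0525% of all gene-by-region tests, and in 0 did the groups not overlap, where 3.08% of all tests had groups apart. DESeq2 called 0 of the 45 to which it gave an adjusted p (0.262% of all such tests). With edgeR 1 had an unadjusted p under 0.05, where 6.24% of all tests did. That 1 was Lhx1 in cerebellum, at 78.3, 63.5, 74.1, 73.8 and 59.8 CPM in aDR and 59.2, 59.7, 51.4 and 68.6 CPM in AL mice. The groups overlapped, and the log2 change was 0.24 (SE 0.09, edgeR adjusted p = 0.288). The 7 Purkinje cell genes summed to 4365 to 7914 CPM in aDR and 4598 to 6075 in AL cerebella, with aDR mouse 64 highest, and their part in the Lhx1 values was not tested. Over the whole brain, tested with limma on a region-adjusted value per mouse, 0 of 6 members were called, where 1.75% of genes were. With limma 0 had an unadjusted p under 0.05, where 16.8% did. The log2 changes were -0.25 for Lhx5 (SE 0.12, adjusted p = 0.328), -0.13 for Lhx1, -0.08 for Lhx6, -0.04 for Lhx8, 0.01 for Lhx2 and close to 0 for Lhx9. No member was called for a diet effect that differs between regions (0 of 6 called by edgeR, 0.0128% of genes, and 0 at an unadjusted p under 0.05, where 2.13% were).

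Of the 16 network genes, 0 were called with diet in the within-region tests, where 0.0525% of all tests were. Of the 169 run, 19 had an unadjusted p under 0.05 with edgeR, where 6.24% of all tests did. Over the brain 0 were called, where 1.75% of genes were, and Ldb1 came closest with a log2 change of 0.13 (limma adjusted p = 0.0564). In liver 0 of the 2 members tested were called (0.220% of genes were, and 0 of the 2 had an unadjusted p under 0.05 with edgeR, where 9.09% of genes did, and 0 of the 2 were called by DESeq2, where 1.90% were). Lhx2 was at 2.33, 4.05, 2.59, 4.00 and 2.25 CPM in DR and 3.44, 4.50, 2.33 and 2.72 in AL livers. Lhx6 was at 3.32, 0.135, 0.555, 3.71 and 1.84 CPM in DR and 2.77, 1.91, 1.66 and 6.51 in AL livers, with a log2 change of -0.91 (SE 0.67, adjusted p = 0.790). Of 8 network genes tested in liver, edgeR called 0 (1 at an unadjusted p under 0.05) and DESeq2 called 1 of 8, Ldb1.

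With plasma, 50 of 90 gene-by-region tests passed the filter, and edgeR called 0 of them, where 0.0127% of all tests were called. A total of 7 had an unadjusted p under 0.05, where 6.11% of all tests did, and DESeq2 called 1 of 48, Lhx9 in SVZ, where 0.463% of all its tests were called. In 5 of the 50 the YMP and PBS libraries did not overlap, where 9.16% of all tests had groups apart: Lhx2 in corpus callosum and anterior hippocampus, Lhx6 in corpus callosum and SVZ, and Lhx5 in medulla. None of these passed the adjustment.

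Lhx9 in SVZ was at 0, 0.107 and 0.470 CPM in YMP and 0.271, 18.9, 5.46 and 1.25 CPM in PBS mice. The groups overlapped, and the log2 change was -4.73 (SE 1.61, edgeR adjusted p = 0.270), with DESeq2 giving -4.90 (adjusted p = 0.00973). The high PBS value belongs to mouse 76, whose SVZ also held Tcf7l2 at 187 CPM. The YMP libraries lacked the high thalamic sums listed above, and their 5 choroid plexus genes summed to 6.09 to 9.86 CPM, against 2634 to 19138 in the PBS libraries. The part of these in the Lhx9 values was not tested. With any 1 PBS mouse left out the gene no longer passed the filter.

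Lhx6 in SVZ was at 22.4, 33.6 and 20.5 CPM in YMP and 18.7, 7.85, 15.1 and 7.09 CPM in PBS mice. Every YMP value was above every PBS value (log2 change 1.02, SE 0.37, edgeR adjusted p = 0.292). The 5 striatal genes summed to 955 to 2323 CPM in YMP and 874 to 2217 in PBS libraries, and the 10 interneuron genes to 1208 to 1963 and 959.6 to 2268, so those lists overlapped. The thalamic sums of 77.4 to 275 and 74.0 to 788 overlapped too, while the choroid plexus sums did not, at 6.09 to 9.86 CPM in YMP and 2634 to 19138 in PBS libraries. The part of any of these was not tested. Lhx5 in medulla was at 14.5, 10.1 and 8.90 CPM in YMP and 6.33, 8.72, 7.59 and 7.11 in PBS mice (log2 change 0.60, SE 0.20, edgeR adjusted p = 0.452). The 5 hindbrain genes summed to 245 to 418 CPM in YMP and 148 to 247 in PBS libraries, which overlapped, and their part was not tested.

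Lhx8 in hypothalamus was at 0, 2.40 and 0 CPM in YMP and 72.5, 1.68 and 1.60 CPM in PBS mice. Its log2 change of -4.92 (SE 1.80, edgeR adjusted p = 0.998) was -0.95 (adjusted p = 0.832) without mouse 72. The other unadjusted p-values under 0.05 were those of Lhx1 in cerebellum (log2 change -0.23), Lhx2 in corpus callosum (0.42) and Lhx6 in entorhinal cortex (0.40), with edgeR adjusted p of 0.482, 0.546 and 0.910.

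Over the whole brain 0 of 6 members were called with plasma by limma, as were 0% of genes, and 1 had an unadjusted p under 0.05, where 8.35% did. That was Lhx6, which differed by 0.38 on the log2 scale (SE 0.12, limma adjusted p = 0.487). The other log2 changes were 0.17 for Lhx2, -0.12 for Lhx9, -0.17 for Lhx8, -0.20 for Lhx1 and -0.30 for Lhx5, and the median of the 6 was -0.15. No member was called for a plasma effect that differs between regions (0 of 6 called by edgeR, 0.824% of genes). Lhx9 was the only member under 0.05 unadjusted there (adjusted p = 0.498), where 7.70% of genes were. Of the network genes, edgeR called 0 of 163 within-region tests, where 0.0127% of all tests were called. With edgeR 13 had an unadjusted p under 0.05, where 6.11% of all tests did. DESeq2 called 3 of 163, against the 0.463% given above.

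**Figure D5:**
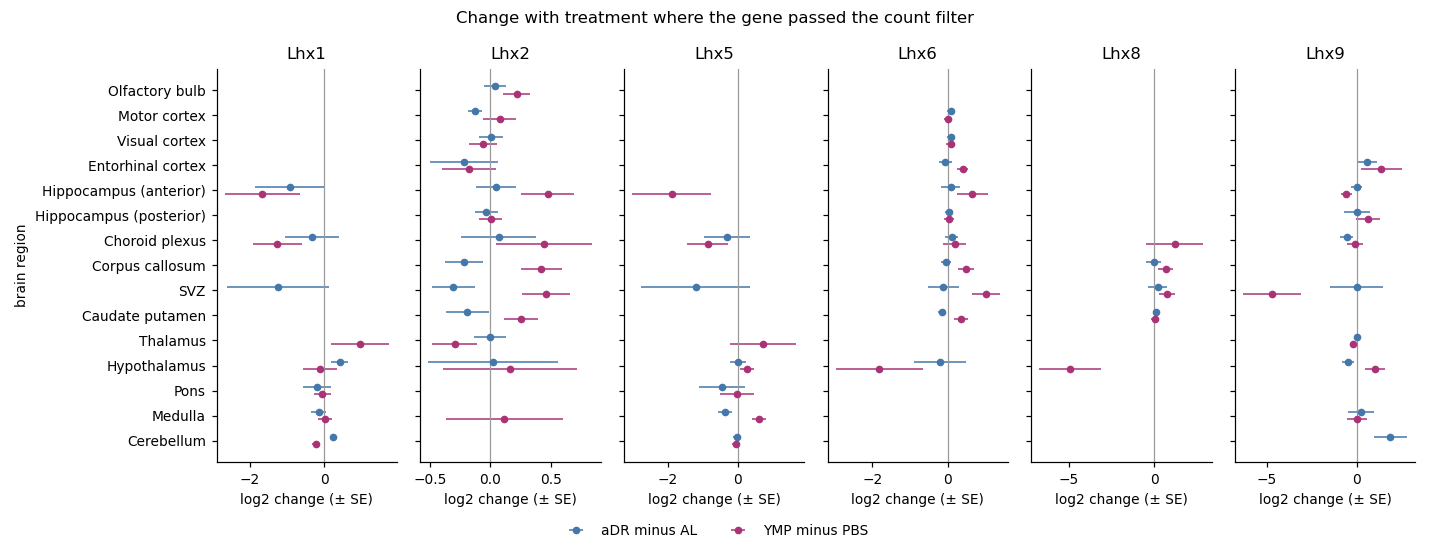
Log2 change with treatment (x axis, with standard error bars) of each member in each brain region (y axis) where it passed the count filter, for aDR minus AL and YMP minus PBS. The x axes differ between panels. Most points lie near 0, and the widest errors belong to Lhx8 and Lhx9 where single libraries are high.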

How the data were processed

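RNA was isolated from homogenized tissue and libraries were made with Smart-Seq2 and Nextera XT, unstranded, per the labels. The deposited file holds raw read counts per gene. The submitters' processing notes name Trim Galore 0.3.7, STAR 2.5.3a, DESeq2 and GRCm38, and the counting program is not given in the sources used here. Rows with no count in any library numbered 537.

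Brain CPM were scaled by edgeR's trimmed mean of M-values, and liver CPM by library totals. Genes with low counts were left out by edgeR's filterByExpr (10 counts in enough libraries, 15 in all). Tests used edgeR 4.0.16 (quasi-likelihood), limma 3.58.1 on mouse means of log2 CPM (prior count 2), and DESeq2 1.42.0 as an alternative, in R 4.3.3. Benjamini-Hochberg adjustment ran over all genes of a test, at a threshold of 0.05. The scripts were tested on simulated data. Alternatives were DESeq2, RLE scaling, no filter, a prior count of 0.5, leaving out each mouse in turn and the mouse as a block, and the closing section gives their effect.

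Libraries of a mouse share its number, so numbers pair regions of the same animal. Deviations of libraries of the same mouse correlated at 0.047 (diet) and 0.12 (plasma) on average. The closest 2 replicates differed by a chi-square of 1.29 per degree of freedom, above sampling noise, among 357 pairs. The libraries of a group in a region carry different mouse numbers.

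The members, the network list and the marker lists were chosen with earlier results of these data known. Named genes were the 6 members throughout, some of the network genes called in a test (at most 3 per region pair), and for each member the 3 genes most like it. A gene with no count in a group was given a bound against the floor, and one with 1 to 3 counts in a library a ratio of pooled counts with an exact (Clopper-Pearson) 95% interval. Counting intervals and floors (3 counts) cover counting error only.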

Additional observations from a re-analysis of the deposited data

Results flagged for a closer look

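A value was picked out where the highest or lowest library of a group of 4 to 10 lay further from its nearest neighbour than Dixon's 95% limit allows. Of 124 groups of members that passed the filter, 7 had such a value, and chance gives about 6.2 (1 in 20), so the number of such values is close to it.

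Lhx1 in anterior hippocampus was 4.18 CPM in aDR mouse 67, against 0 to 0.599 in the other 4 aDR mice, and Lhx2 there was 29.9 CPM in the same library, against 51.1 to 58.5. Lhx2 in anterior hippocampus was 56.5 CPM in AL mouse 63, against 44.3 to 46.4. Lhx5 in pons was 17.7 CPM in AL mouse 68, against 8.17 to 9.30. Lhx9 in medulla was 2.82 CPM in aDR mouse 62, against 0.617 to 0.980. Lhx2 was 28.5 CPM in caudate putamen of aDR mouse 64, against 17.5 to 19.7, and 60.9 CPM in its motor cortex, against 53.7 to 55.1. Groups of 3, among them the PBS hypothalamus with mouse 72, were not tested.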

How the results depend on the processing

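No member was called with either treatment, within regions, in liver, over the brain or between regions, under any scaling, filter, prior count or left-out mouse (range 0 to 0), except that DESeq2 called 1 member within regions with plasma. Called member-by-pair tests numbered 24 to 33 in AL mice and 22 to 32 in PBS mice with 1 mouse left out, and 30 and 26 with DESeq2. With the mouse as a replicate block, which pairs the regions of an animal, they numbered 34 and 27, and all 58 called values kept their call. With DESeq2 6 of the 58 lost theirs, and with 1 mouse left out 33 of 232 did. No called value turned. The whole-brain changes that turned sign were all uncalled, and the largest of them in the main fit was -0.30, for Lhx5 with plasma. For diet, Lhx9 became 0.0011 with RLE scaling, 0.00081 without the filter and 0.0448 and 0.0438 in voom with and without the replicate block, where Lhx2 became -0.0895 and -0.0820 and Lhx1 0.10 and 0.0746. With a mouse left out, diet values ran from -0.0787 to 0.140 for Lhx9, -0.0519 to 0.105 for Lhx2 and -0.179 to 0.148 for Lhx8. For plasma, Lhx8 became 0.116 and 0.0051 and Lhx5 0.133 and 0.0334 in voom with and without the block, and with a mouse left out Lhx9 ran from -0.255 to 0.104 and Lhx8 from -0.448 to 0.0616. The cause was not tested. The highest regional mean of each member moved by less than 1 SD under plain totals or RLE scaling. At this depth 43 and 40 of the 90 member tests within regions, for diet and plasma, were too low in counts to run.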
